A study of Caenorhabditis elegans with 2 samples.

Results

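The peaks described here are autosomal binding regions of ZK185.1-GFP whose summit lies in the start window of protein-coding genes of a single strand. The window ran from 1000 bp before the annotated 5′ end of a gene to 200 bp after it, and summits in the start window of a tRNA gene were left out. The rule uses the position of the summit and no signal value. It kept 538 of 2053 thresholded peaks, which is 26.2% of the list and 34.2% of the 1575 autosomal peaks. The other autosomal peaks lay in windows of genes of both strands (292), in no coding start window (604) or at a tRNA gene start (141). Of the kept peaks, 260 belonged to genes of the plus strand and 278 to genes of the minus strand. They fell in the window of 1 gene in 513 cases and of 2 neighbouring genes in 25 cases.

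The data are chromatin immunoprecipitation and sequencing of whole Caenorhabditis elegans young adult hermaphrodites of strain OP474, which were collected 56.25 h after synchronization at the L1 stage. There is 1 group with 2 biological replicates. All worms carry unc-119(tm4063) on chromosome III and the transgene wgIs474, which encodes ZK185.1 with GFP and FLAG at its C terminus, and an antibody to GFP was used for the precipitation. Hence the protein mapped is the tagged product of a transgene, and whole animals average all tissues, germline included. A control experiment named in the labels was not analysed here, and the design holds no second condition.

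Gene starts in this nematode have 3 features that bear on a window of this kind. Many transcripts are trans-spliced to a leader, so that the annotated 5′ end can lie downstream of the place where transcription begins. Genes of the same strand that follow closely can be parts of an operon, transcribed from the first promoter. Each autosome has a gene-dense central part rich in essential and widely conserved genes, and arms that recombine more, hold more repeats and carry many members of young gene families such as chemoreceptors and F-box proteins. Here the middle is the central 50% of the length of each autosome and each arm is the outer 25%.

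The sequences below were read from the RefSeq copy of WBcel235, which is the ce11 build, with 50 bp to either side of the summit, and they are written in the direction of the gene. The first 6 are the 3 strongest peaks in the arms and the 3 strongest in the middle among summits without an annotated exon in the window, on chromosomes II to V. The last 4 were chosen after their values were seen, since they carry words found often at the summits. Capitals mark the 8-letter words AAACACGC, AGACGCAG, CGAGAGGA, GAGGAGTA, CTAGGCCA, GCGCCAGC and CGCGTTTC on either strand. CGAGAGGA and GAGGAGTA overlap where both are present and then read as 1 run. Coordinates and strands are chrIII:12905156-12905256 plus for cox-5A, chrII:14561769-14561869 minus for mog-4, chrIV:17249862-17249962 plus for eelo-2 and chrIII:3867514-3867614 plus for rpl-3. They are chrII:10563510-10563610 minus for cdc-48.1, chrIII:7854642-7854742 plus for rpl-35, chrV:10897328-10897428 minus for sec-61.G and chrIII:5722003-5722103 plus for wrm-1. They are chrIII:10270955-10271055 plus for cnk-1 and chrII:4851759-4851859 plus for dnj-9.
cox-5A: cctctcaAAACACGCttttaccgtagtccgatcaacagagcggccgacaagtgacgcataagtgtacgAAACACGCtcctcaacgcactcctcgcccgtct
mog-4: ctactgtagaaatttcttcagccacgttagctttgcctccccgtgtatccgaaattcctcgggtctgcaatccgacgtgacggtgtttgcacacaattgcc
eelo-2: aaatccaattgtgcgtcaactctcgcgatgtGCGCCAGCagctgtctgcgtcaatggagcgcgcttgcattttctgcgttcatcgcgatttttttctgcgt
rpl-3: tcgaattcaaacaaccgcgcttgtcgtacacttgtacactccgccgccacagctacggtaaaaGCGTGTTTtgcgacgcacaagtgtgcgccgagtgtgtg
cdc-48.1: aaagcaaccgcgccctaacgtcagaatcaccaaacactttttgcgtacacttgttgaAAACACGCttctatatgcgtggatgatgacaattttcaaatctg
rpl-35: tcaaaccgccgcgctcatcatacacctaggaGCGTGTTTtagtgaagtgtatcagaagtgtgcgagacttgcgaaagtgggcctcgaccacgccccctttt
sec-61.G: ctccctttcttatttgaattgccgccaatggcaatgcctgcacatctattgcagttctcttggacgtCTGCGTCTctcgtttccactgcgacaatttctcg
wrm-1: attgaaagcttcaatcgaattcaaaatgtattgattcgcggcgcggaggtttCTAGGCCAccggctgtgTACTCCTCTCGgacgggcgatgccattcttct
cnk-1: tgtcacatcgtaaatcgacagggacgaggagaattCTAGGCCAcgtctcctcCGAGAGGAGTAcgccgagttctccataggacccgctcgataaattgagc
dnj-9: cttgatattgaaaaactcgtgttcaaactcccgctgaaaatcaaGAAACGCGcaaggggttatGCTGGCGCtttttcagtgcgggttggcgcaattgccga

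The 3 strongest of all 538 peaks and the strongest in the arms hold AAACACGC or its reverse complement GCGTGTTT, and cox-5A holds it at 2 places. The mog-4 window holds none of the marked words. The wrm-1 and cnk-1 windows both hold CTAGGCCA together with the joined run of CGAGAGGA and GAGGAGTA.

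The strongest peak stood before rpl-3, which encodes a protein of the large ribosomal subunit. Its summit lay 290 bp upstream of the annotated start, and its signal is the peak height given by the authors on an unstated scale. It reached 466 in the first replicate, 571 in the second and 1039 after pooling. For cdc-48.1, an ATPase that extracts proteins from complexes and membranes, the signal 153 bp upstream was 345 in replicate 1, 305 in replicate 2 and 706 pooled. For rpl-35, another large subunit protein, it was 345, 328 and 698 in the same order, at 442 bp upstream. These 3 stood far above the median of each list over those of the 538 peaks matched in it, which was 30.7 in replicate 1, 48.7 in replicate 2 and 96.4 pooled. The pooled signals ranged from 57.1 to 1039, with an interquartile range of 70.1 to 151.02, and the scale differs between lists, so that replicate and pooled values are compared only within a list.

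In the middle, the next peaks were at H41C03.3 and K12H4.5, which RefSeq lists as uncharacterized, with pooled signals of 536 and 524. The H41C03.3 summit was 950 bp upstream, with 207 in replicate 1 and 305 in replicate 2. Then came F59C6.18, annotated as an FMRF-like peptide gene (449), sec-61.G, the gamma subunit of the channel that moves proteins into the endoplasmic reticulum (421), and C49A9.10, which has an oxidoreductase-like domain (414). The sec-61.G summit had 219 in replicate 1 and 158 in replicate 2. The peak at egg-5, an inactive phosphatase needed for the change from oocyte to embryo, reached 407 pooled and 313 in replicate 2. Replicate 1 had no summit within 100 bp of it, but in the same interval it had one near the second pooled summit, 827 bp upstream, where the signal was 160 in replicate 1, 57.2 in replicate 2 and 150 pooled. The stronger egg-5 summit lay within an annotated RNA gene or pseudogene. C47E8.4, a FAM50 homolog (404), Y73B6BL.29, a tRNA pseudouridine synthase (397), and T07F10.3, with an RNA recognition motif (379), complete the 12 strongest of the middle.

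In the arms, cox-5A, a subunit of cytochrome c oxidase in the respiratory chain, led with 237 in replicate 1, 251 in replicate 2 and 519 pooled. For mog-4, an RNA helicase of the spliceosome, the values were 180, 182 and 429. For cmtr-1, which methylates the cap of messenger RNA, they were 130, 232 and 413, and for ints-4, a subunit of the Integrator complex, they were 149, 221 and 350. The ints-4 summit lay 52 bp inside the gene, in an untranslated exon. The others were Y39B6A.43 (328 pooled), eelo-2 (326), W04C9.4 (322), the glutathione transferase gene gst-27 (321), fbxb-72 (312), F48A11.4 (298), and the ubiquitin ligase genes eel-1 (297) and wwp-1 (295).

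Among these peaks matched in both replicates, ranks within the lists were farthest apart at fbxb-72, an F-box gene. Its signal of 214 in replicate 1 had rank 50 there, and its signal of 74.6 in replicate 2 had rank 536. That peak was 535 bp wide, and the 50 bp to either side of its summit held 34.7% GC, the lowest of the 24 peaks just named. The plot of the strongest peaks shows each replicate beside the pooled value.

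**Figure D1:**
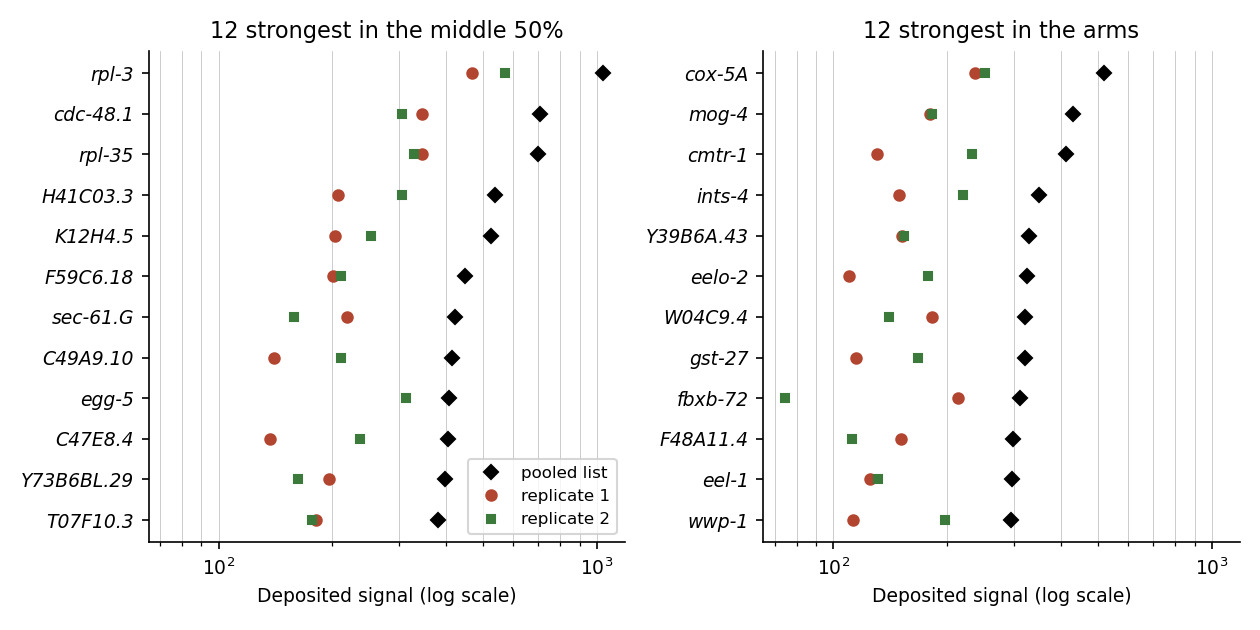
Deposited signal on a log axis for the 12 strongest peaks of the middle 50% and of the arms, by nearest gene; diamonds are the pooled list, circles replicate 1 and squares replicate 2. rpl-3 leads with 1039 pooled, and egg-5 has no replicate 1 point because no summit of that replicate lies within 100 bp of this one.

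A summit in the relaxed list of replicate 1 lay within 100 bp of 476 peaks (88.5%), and one of replicate 2 of 511 peaks (94.98%). Both replicates matched 452 peaks (84.0%, 95% exact interval 80.6 to 87.0%), and neither matched 3. The interval, like all intervals here, covers the counting of peaks only. Over the 452 peaks the replicate signals had a Spearman rho of 0.55, a description across peaks that share 2 libraries. The share matched in both was 98.5% among the 134 strongest peaks (132) and 69.4% among the 134 weakest (93). Of these weakest, replicate 1 lacked 33 peaks and replicate 2 lacked 10.

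The summits lay mostly upstream of the annotated start. The median distance was 252 bp upstream, with an interquartile range of 435 to 128 bp upstream (medians of 256 and 237 bp upstream among the strongest regions of replicates 1 and 2). Of the 538 summits, 492 were upstream (91.4%, interval 88.8 to 93.7%). As the window reaches farther upstream than downstream, the 200 bp on either side give a fairer view: 166 of 212 summits there were upstream (78.3%). Among 5162 weaker regions of the pooled relaxed list that meet the same rule and lie more than 500 bp from any thresholded summit, 80.9% were upstream of the start, and 52.9% of those within 200 bp. Peaks in windows of both strands, where starts lie close together, had a median of 146 bp upstream.

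**Figure D2:**
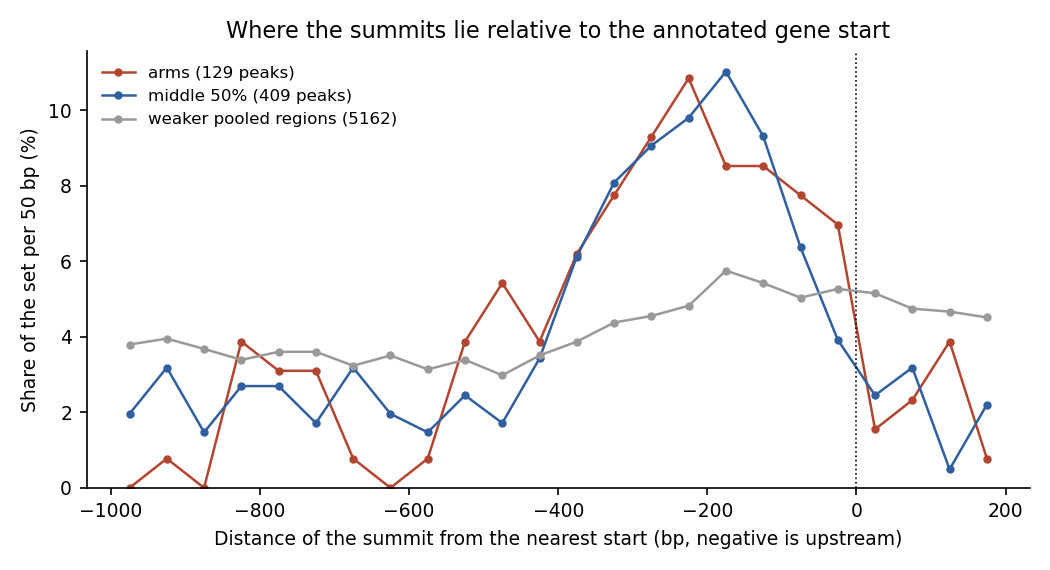
Share of each set per 50 bp against the distance of the summit from the nearest start of its strand; negative distances are upstream. Peaks of the arms and of the middle both crowd between 400 and 100 bp upstream, while the weaker regions are spread over the whole window.

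The peaks nearest to the window edges were at ppm-2, 999 bp upstream with a signal of 201.2, and at lin-52, 200 bp downstream with 130. Just outside stood dhs-8 at 1001 bp upstream (206) and F55H12.2 at 204 bp downstream (62.5).

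Sequence between genes held 405 summits (75.3%), against 51.6% of the bases in one-sided windows. Coding exons held 40 summits (7.43%, against 22.9% of the bases) and introns 37 (6.88%, against 13.7%). Exonic untranslated sequence held 29 (5.39%, against 8.95%), and RNA genes or pseudogenes held 27 (5.02%, against 2.92%). Summits lay between genes more often than the window bases do.

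Start windows of small RNA genes were also touched. In 29 cases (5.39%) the summit lay in the start window of a small nucleolar RNA gene, while such windows cover 0.435% of the one-sided bases. Small nuclear RNA windows held 9 (1.67%, against 0.165% of the bases) and windows of other annotated noncoding RNA genes 68 (12.6%, against 5.86%). For piRNA genes the order was the opposite, with 16 summits (2.97%) in windows that make up 4.72% of the bases. An RNA gene start and a coding gene start cannot be told apart at these summits, and the named coding gene is only the one the rule finds. Among the 24 strongest peaks named above, the summits at cdc-48.1, F59C6.18, cmtr-1 and gst-27 lay in a snoRNA start window, and those at H41C03.3 and egg-5 in an snRNA window. The summit at wwp-1 lay in the window of another noncoding RNA gene and that at eelo-2 in a piRNA window. Of the genes named from the lists below, the summit also lay in a snoRNA window at mrpl-23, sre-23 and fbxa-83, in an snRNA window at cox-6A and ins-13, and in a piRNA window at his-58. It lay in a window of another noncoding RNA gene at cox-5B, hsp-1, ztf-7, col-63 and srh-2.

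In the 16998 autosomal coding genes with at least 1 base in a one-sided window, 537 (3.16%) had a summit of these peaks in it. The share was 1.73% for genes of the arms (131 of 7559) and 4.3% for genes of the middle (406 of 9439). Most of the 537 had 1 peak. There were 25 with 2 or more, and eel-1, a very large HECT-type ubiquitin ligase, had 3, at 807, 581 and 356 bp upstream with pooled signals of 58.4, 218 and 297. Others with 2 peaks were rps-24, rsp-6, lgg-1, skn-1, hlh-11 and pro-1. Peaks are counted by summit here, and some are not separate regions. The 2 summits of H41C03.3, of egg-5 and of fbxb-72 share 1 interval each. Intervals overlap at eel-1, rps-24 and hlh-11, among others. The strong one of a pair lay nearer to the start at pro-1 (231 at 198 bp against 73.0 at 762 bp) and rsp-6 (174 at 156 bp against 61.9 at 983 bp). At H41C03.3 the farther of the 2 summits in the interval was the stronger (536 against 174).

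Shares and distances differed with the gene that lies directly upstream. Where a gene of the same strand ended less than 500 bp before the start, 161 of 3264 genes had a peak (4.93%), and the median distance was 155 bp upstream. With a gap of 500 to just under 2000 bp the share was 4.11% (132 of 3215), and the median lay farther out, 367 bp upstream. With a gap of 2000 bp or more it was 1.97% (44 of 2233). Genes whose upstream neighbour has the opposite strand had a peak in 2.31% of cases (163 of 7053), but they keep fewer bases that belong to 1 strand only, 707 per gene against 1150 in the closest same-strand class. Per Mb of one-sided window the 4 classes held 45.0, 36.4, 17.2 and 34.3 summits. Genes that start inside another coding gene held 28.2.

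Gene lists were compared by the share of their eligible genes with a one-sided peak, beside 3.16% over all eligible genes. The lists go by symbol and do not hold every gene of a kind. The splicing list lacks mog-4, the ubiquitin list eel-1 and wwp-1, the germline list egg-5, and the neuropeptide list F59C6.18. Shares and leading genes are those of the listed symbols only. The 2 cytosolic ribosomal lists and the oxidative phosphorylation list stood highest. Of the large ribosomal subunit proteins 12 of 45 had a peak (26.7%), with pooled signals of 241 at rpl-24.2 and 213 at rpl-29 after rpl-3 and rpl-35. Of the small subunit proteins 5 of 27 had one (18.5%), led by rps-28 (234; 79.0 in replicate 1 and 143 in replicate 2) and rps-24 (171). Of the listed oxidative phosphorylation genes 7 of 36 had one (19.4%), among them cox-6A (264) and cox-5B (247), 2 more subunits of cytochrome c oxidase. This list does not cover the whole respiratory chain, since nduf-11 (147) and ndua-1 (65.8) also had a peak and are not in it. Mitochondrial ribosomal proteins had 5 of 67 (7.46%), with mrpl-23 (335) and mrps-35 (191) highest. Their exact interval of 2.47 to 16.6% includes the 3.16% of all eligible genes. The mrpl-23 summit lay 942 bp upstream, in an intron and in snoRNA and ncRNA start windows.

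Ubiquitin conjugation, the vacuolar ATPase, chromatin and transport came next. Ubiquitin conjugation had 7 of 46 (15.2%), led by uba-1, the enzyme that activates ubiquitin (199), and cul-4, the scaffold of a ubiquitin ligase (187). Chromatin and transcription machinery had 11 of 98 (11.2%), with set-2, a histone H3 lysine methyltransferase (256), and rpb-11, a subunit of RNA polymerase II (179). Vesicle and nuclear transport had 9 of 85 (10.6%), with sec-61.G and the nuclear pore gene npp-8 (228). The vacuolar ATPase had 2 of 16 (12.5%), vha-13 (137) and vha-2 (79.5). Its exact interval of 1.55 to 38.3% includes the 3.16% of all eligible genes.

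Smaller counts were seen in other lists of general cell function. Translation factors had 3 of 40 (7.5%), led by eif-3.C (226) and eif-2Bdelta (81.7), and splicing factors had 3 of 41 (7.32%), led by rsp-6 (174) and snrp-3 (149). The cell cycle and replication list had 3 of 55 (5.45%), headed by cdc-48.1 and by pcn-1, the sliding clamp of DNA polymerase (172). Of these, cdc-48.1 is better known for protein extraction than for the cycle. Glycolysis and the citrate cycle had 2 of 27 (7.41%), cts-1 (115) and mdh-1 (58.4). The chaperone list had 2 of 44 (4.55%), dnj-9 (320) and hsp-1 (161). The germline and oocyte list had 2 of 43 (4.65%), cgh-1 (108) and oma-2 (64.9). The proteasome list had 1 of 30 (3.33%), rpn-6.1 (62.6), and the aminoacyl-tRNA synthetases had 1 of 31 (3.23%), aars-2 (61.4). The CCT chaperonin had 0 of 8, so that a share of up to 36.9% is within its exact interval. Histone genes had 2 of 67 (2.99%), his-37 (257) and his-58 (61.8), and these are uncertain because histone genes are near-identical copies.

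Large families lay at the other end. Chemoreceptors had 3 of 1270 (0.236%), headed by sre-23 (260) and srh-2 (71.1), and the F-box and BTB families had 2 of 390 (0.513%), fbxb-72 and fbxa-83 (112). C-type lectins had 1 of 233 (0.429%), clec-53 (91.3), and cuticle collagens 1 of 142 (0.704%), col-63 (128). Neuropeptides and insulins had 1 of 105 (0.952%), ins-13 (72.5). Nuclear hormone receptors had 4 of 243 (1.65%), led by nhr-49, a regulator of fat metabolism (110), and nhr-135 (80.9). Detoxification enzymes had 3 of 170 (1.76%), gst-27 well above gst-9 (57.1). The homeobox, zinc finger and bZIP list had 1 of 87 (1.15%), ztf-7 (159).

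**Figure D3:**
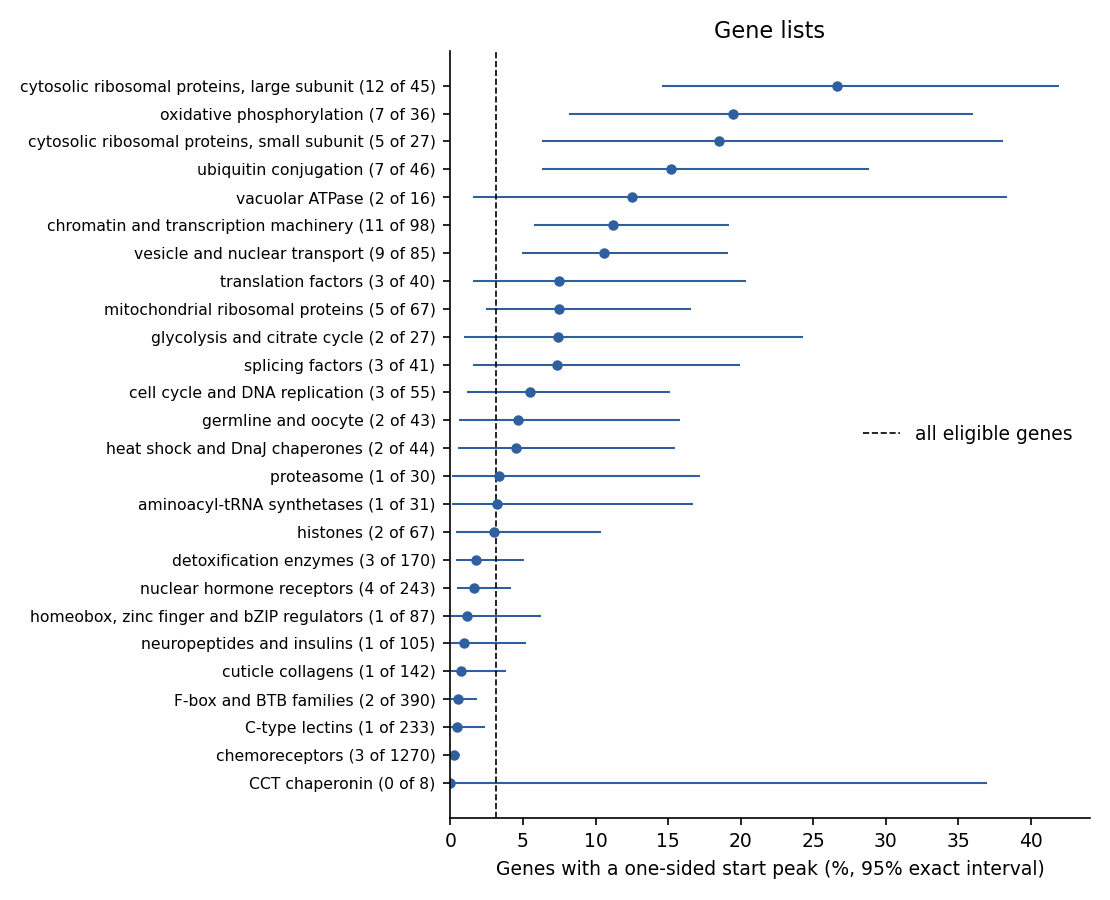
Percent of the eligible genes of each list that have a one-sided start peak, with 95% exact intervals and, in the labels, the counts; the dashed line is the 3.16% of all eligible genes. Ribosomal and respiratory chain lists stand between 18.5 and 26.7%, and chemoreceptors at 0.236%.

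The arms held 129 of the peaks (24.0%, interval 20.4 to 27.8%) and the middle 409, over equal lengths of sequence. Arms also have fewer bases in one-sided windows, 45.1% of the total. Per Mb of such window the arms held 17.5 summits and the middle 45.6, a ratio of 2.60 (exact interval 2.13 to 3.20). Among the 2053 strongest regions of replicate 1, the rule kept 135 in the arms and 359 in the middle (ratio 2.18). In replicate 2 it kept 161 and 409 (ratio 2.09), so both replicates alone gave a smaller ratio than the pooled list. The 5162 weaker regions gave a ratio of 4.13, with 16.6% in the arms. Regions ranked below 2053 in each replicate's own list gave smaller ratios, 2.75 in replicate 1 (23.0% in the arms) and 3.38 in replicate 2 (19.6%). Along the pooled ranking, the arm share of regions under the rule was 24.0% for ranks 1 to 2053, 19.8% for ranks 2054 to 4106 and 15.9% for ranks 8213 to 10265.

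The arms were not even along their length. Within the outermost 5% of the chromosome at each end, 48 peaks stood at 33.9 per Mb of window (Poisson interval 25 to 45). In the rest of the arms, 81 peaks stood at 13.6 per Mb (10.8 to 16.9), against 45.6 per Mb (41.3 to 50.2) in the middle. The outermost bins exceeded the rest of the arms on all 5 autosomes, with 32.1 against 20.4 per Mb on chromosome I, 43.6 against 13.4 on II, 34.8 against 15.3 on III, 47.0 against 19.5 on IV and 19.3 against 6.398 on V. In the strongest regions of replicate 1 the order was again 29.7, 15.6 and 40.01 per Mb for ends, rest of the arms and middle, and in replicate 2 it was 38.1, 17.96 and 45.6. The weaker regions had 192, 98.0 and 480. The ends exceeded the rest of the arms on each of the 5 autosomes in both replicates' lists as well. The 5% limit was chosen after the profile had been seen.

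Several of the strongest arm peaks belong to these ends, namely mog-4, cmtr-1, eelo-2, W04C9.4, gst-27, fbxb-72, F48A11.4 and wwp-1. Nearest to a chromosome end was the peak of pot-3, which encodes a protein related to telomere-binding POT1, 4.02 kb from the right end of chromosome III. Its signal was 62.9 pooled, 8.73 in replicate 1 and 23.2 in replicate 2. The median pooled signal of the end peaks was 84.1, against 116 in the rest of the arms and 93.9 in the middle. The strongest regions of each replicate's own list are other sets of regions. Their medians, in the same order, were 36.1, 34.4 and 33.1 in replicate 1 and 51.3, 51.7 and 48.1 in replicate 2. Hence the ends were lowest among the pooled peaks and in neither of these 2 sets.

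**Figure D4:**
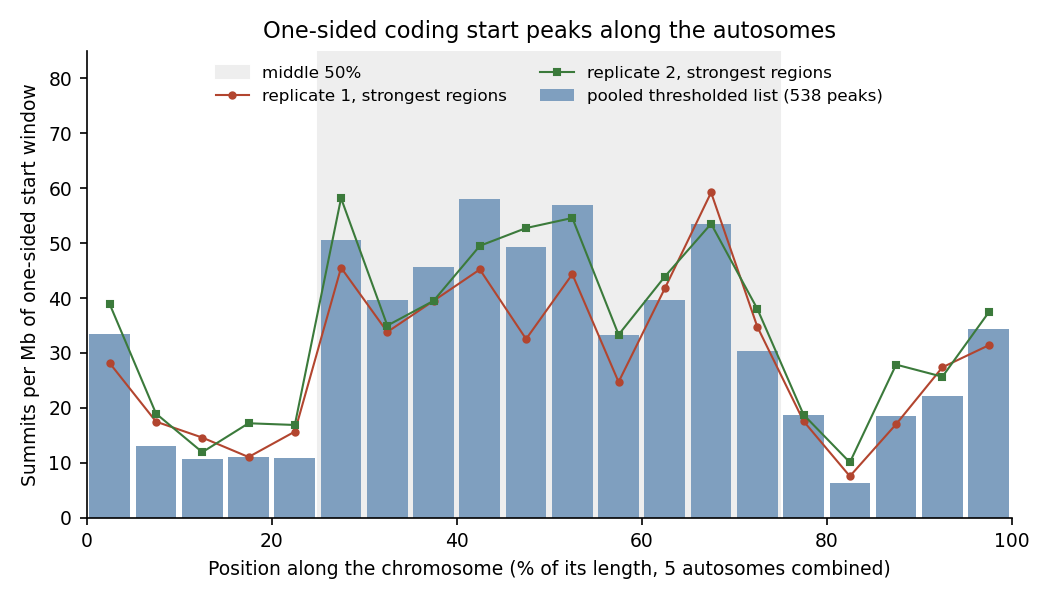
Summits per Mb of one-sided start window in 20 bins of 5% of chromosome length, with the 5 autosomes combined; bars are the pooled list, lines the strongest regions of each replicate, and shading the middle 50%. The pooled density steps from 10.9 to 50.6 per Mb where the left arm meets the middle, and rises again to 33.5 and 34.4 in the outermost bins.

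The 5 autosomes differed in how arms compared with the middle. The ratio per Mb of window was 4.34 on chromosome V, 2.91 on III, 2.68 on II, 2.42 on I and 1.40 on IV. Chromosome IV had 33.7% of its peaks in the arms, and the shares in the replicates were 37.3% and 38.0%. On chromosome V the arm share was 17.4% pooled, 23.5% in replicate 1 and 17.5% in replicate 2. The 2 arms of a chromosome were most unequal on II, with 6 peaks on the left (6.38 per Mb of window) and 24 on the right (35.6). The counts there were 6 and 14 in replicate 1 and 9 and 22 in replicate 2. Left and right densities were also unequal on I (32.4 and 15.2 per Mb), III (12.1 and 26.9) and V (11.7 and 5.49). These rest on few peaks, 16 and 10 on I, 6 and 14 on III and 14 and 6 on V, and no interval was taken for them. On IV the 2 arms were alike, with 25.7 and 24.96 per Mb.

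Peaks of arms and middle were similar in form. The median distance was 230 bp upstream in the arms and 254 bp in the middle, and the share upstream was 91.5% and 91.4%. Both replicates matched 82.9% of the arm peaks and 84.4% of those in the middle. The median pooled signal was 110 in the arms and 93.9 in the middle. Over those of the peaks matched in each replicate, it was 34.1 against 30.2 in replicate 1 and 53.5 against 47.8 in replicate 2. Of the 134 strongest peaks 29.9% stood in the arms, and of the 134 weakest 18.7%.

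The make-up of genes differed between arms and middle, and so did the share with a peak inside each class of genes. Genes of the 18 lists of cell machinery had a peak in 6.05% of cases in the arms (17 of 281) and in 11.4% in the middle (60 of 525), a ratio of 1.89. Genes of the 8 families had one in 0.304% (5 of 1643) and 1.10% (11 of 997), a ratio of 3.63. All other coding genes had one in 1.93% (109 of 5635) and 4.23% (335 of 7917), a ratio of 2.19. The families have 62.2% of their genes in the arms and the machinery lists 34.9%. Repeats move with position too: 39.9% of one-sided window bases were soft-masked in the arms and 30.05% in the middle. With only bases and summits outside the soft-masked sequence, the density was 21.9 per Mb in the arms and 57.5 in the middle, a ratio of 2.63.

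Base composition rose sharply at the summits. Within 50 bp to either side of the summit the GC content was 44.8% ± 7.84 (SD over 538 peaks), against 35.4% in windows 300 bp to either side and 33.9% in windows centred 250 bp upstream of 12721 starts without a thresholded peak. The weaker regions had 36.0%, and peaks in windows of both strands 47.2%. The arms stood at 45.9% and the middle at 44.5%, so that the rise was present in both. Of the windows, 8.55% were soft-masked over at least 50% of their length, against 32.3% of those at starts without a peak.

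**Figure D5:**
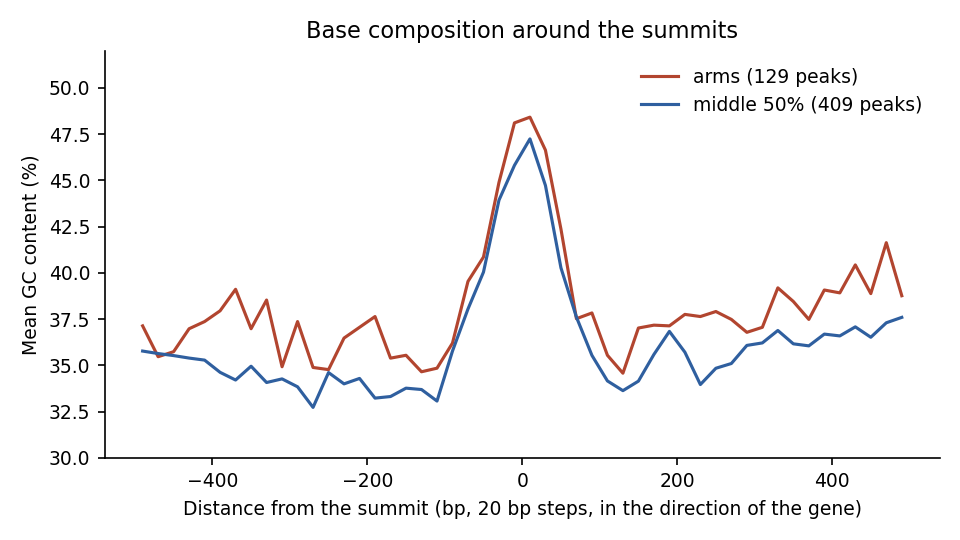
Mean GC content in steps of 20 bp around the summit, in the direction of the gene, for 129 arm peaks and 409 peaks of the middle. Both curves peak within 10 bp of the summit, at 48.4% in the arms and 47.2% in the middle, and stand at 34.8% and 33.1% at 110 bp upstream.

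Short words of known promoter elements were counted on both strands in the same windows. A GA repeat spelled GAGAGA was in 19.9% of the peaks (107 of 538) and in 6.10% of starts without a peak. GCGCGC was in 8.36% against 0.873%, and TTGGCG, the core of sites of E2F factors, in 10.2% against 2.87%. In windows of at least 40% GC the shares were 22.9% against 11.7% for GAGAGA and 10.4% against 2.41% for GCGCGC. The ratio was smaller there for both words, but the difference in percent narrowed only for GAGAGA. For the other words of this paragraph no shares in such windows were taken. Fewer peaks than starts without a peak held TATAAA (4.46% against 12.8%), TTTTTT (19.7% against 46.3%), TGATAA, a site of GATA factors (6.51% against 10.7%), or TTTCAG, the splice acceptor end (9.11% against 17.9%). For TGATAA the order was not the same in both zones, with 10.1% of arm peaks against 9.46% of arm starts without a peak, and 5.38% against 11.7% in the middle. CCAAT was at similar shares, 16.2% against 19.6%. A match is a string of letters, not a binding event.

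Of all 8-letter words, those described next were picked for a high share or ratio in these same peaks, so their excess is fixed by the choice and is a description. AGACGCAG was in 48 peaks (8.92%), 18 of the 292 peaks of both strands (6.16%), 1.69% of the weaker regions and 0.904% of starts without a peak. Among windows of at least 40% GC, it was in 9.16% of the peaks and 2.75% of the starts without one. CTAGGCCA was in 30 peaks (5.58%) against 0.401%, and in windows of at least 40% GC in 6.36% against 1.19%. GCGCCAGC was in 22 (4.09%) against 0.149% and CGCGTTTC in 23 (4.28%) against 0.173%. The peaks of both strands held CTAGGCCA in 7.88%, GCGCCAGC in 5.48% and CGCGTTTC in 3.42% of cases, so these words are not particular to one-sided peaks. AGACGCAG was within 25 bp of the summit in 31 of 49 matches and GCGCCAGC in 18 of 23, in a window that reaches 50 bp to either side. Over the words marked in the sequences, this share ran from 51.9% (CGAGAGGA, 14 of 27) to 78.3% (GCGCCAGC). The share that an even spread over the window would give was not taken, so no crowding at the summit is read from these counts.

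The shares along the ranking by signal are descriptions too. GAGGAGTA was picked because it is frequent among the strongest peaks. It was in 13 of the 134 strongest peaks (9.70%) and in 2 of the other 404 (0.495%), and CGAGAGGA in 14 (10.4%) and 9 (2.23%). Peaks of both strands held GAGGAGTA in 7.88% and CGAGAGGA in 6.51% of cases, against 2.79% and 4.28% of all 538 peaks. The 15 peaks with GAGGAGTA, among them lrpr-1, wrm-1, W04C9.4 and npp-8, had a median signal of 228 pooled, 72.5 in replicate 1 and 117 in replicate 2. The peaks without it had 94.5, 30.2 and 48.1 in the same order. All 15 were matched in both replicates, and 4 had a window soft-masked over at least 50%. AGACGCAG had the opposite order, with 7 of the 134 strongest (5.22%) and 41 of the others (10.1%), and a median of 85.03 with the word and 99.9 without. AAACACGC was in 15 peaks in all (2.79%), against 2.05% of the peaks of both strands and 0.338% of starts without a peak. Of the 15, 4 were among the strongest 6 peaks, namely rpl-3, cdc-48.1, rpl-35 and cox-5A. The word AAACACGC was singled out after these sequences had been read, so its place among the strongest is a description.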

How the data were processed

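The authors deposited peak lists on ce10 and ce11, per the labels, and only the ce11 lists were used. Each replicate and the pool of both has a relaxed list of 30000 regions. A list of 2053 peaks passed the authors' threshold on the irreproducible discovery rate. In the deposited lists, the signal column is the authors' peak height without a stated scale, and the summit is an offset counted from the first base of the region. Aligner, caller and threshold value: not given in the sources used here. Read depth is unknown from these files, so no interval covers it.

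Chromosome names and lengths of ce11 and WBcel235 are compatible. Gene starts come from Ensembl release 115, and soft-masked bases from the RefSeq genome. Coordinates are 1-based. Summits were classified, matched between lists within 100 bp and counted with Python 3.11.15, numpy 2.4.6, pandas 2.3.3 and scipy 1.17.1, and the rule was tested on simulated positions. With 1 group of 2 replicates no test was run. Shares have 95% Clopper-Pearson intervals and densities Poisson intervals.

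The members, the gene lists and the measures were chosen with earlier results of these data known. The 26 lists go by symbol, and the patterns of 4 were narrowed after values were seen, so as to drop genes of other kinds. Genes named are the nearest to the 12 strongest peaks of the arms and of the middle, the 2 strongest of each list and those with most peaks; others were chosen after their values were seen. Columns of other samples left unused numbered 0.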

Additional observations from a re-analysis of the deposited data

How the results depend on the processing

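Of 50 alternative values, 42 stayed within the 95% interval of the reported value or, for the count of peaks, within 1.5 times it, and no direction turned. The stronger 50% of thresholded peaks held 278 peaks under the rule, by construction fewer, with 96.4% upstream and a share of cell machinery genes 4.04 times that of all eligible genes, against 3.02 times in the full list. A window of 500 bp upstream to 100 bp downstream gave 93.8% upstream. Matching of summits within 50 bp left 61.9% of peaks in both replicates, and within 200 bp 94.2%. Counting 100 bp to either side of the summit, in place of 50, lowered the mean GC content to 41.2%. Taking the strongest regions of 1 replicate alone gave 494 to 570 peaks, 90.9 to 91.4% upstream, a ratio of middle to arms of 2.09 to 2.18, and a share of cell machinery genes 2.98 to 3.11 times that of all genes. Over all alternatives the ratio of middle to arms was between 2.09 and 2.65, and it was 2.63 without soft-masked bases and 2.65 for peaks matched in both replicates, 2 alternatives chosen after seeing the data. The causes of these shifts were not tested. No paired analysis was possible because there is 1 group and no comparison between groups. Read depth is unknown, so how far it limits the weaker peaks cannot be given.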
